A study of Arabidopsis thaliana with 5 samples.

Results

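The genes described here, 9 in number, belong to the root endodermis and were followed in nuclei sorted from Arabidopsis thaliana root tips. They were picked by locus and comprise the transcription factors SHR, SCR and MYB36, the membrane scaffold proteins CASP1, CASP2, CASP4 and CASP5, the dirigent protein ESB1 and the peroxidase PER64. The rule names 10 of the 33602 loci in the deposited tables, of which 9 are described, and all 9 passed the filter on low counts. There were 3 libraries of the smr1 mutant (replicates 1, 2 and 4) and 2 of Col-0, the control without that mutation (replicates 2 and 4). Both lines held the same reporter, a GUS-GFP fusion under the SMR1 promoter, and GFP-positive nuclei were sorted from protoplasted tips, 120000 for each library. Plants were 5 days old and root tips of 0.5 cm were taken, per the labels. The sort took nuclei by activity of that promoter, and neither the smr1 allele nor the number of independent reporter lines is given in the sources used here. The design text names the libraries biological replicates, and p-values rest on the spread between these 5 libraries.

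The endodermis is the innermost cortical layer of the root and surrounds the vascular tissue. SHR is made in the vascular tissue and moves outward, where it acts with SCR to specify the layer. MYB36 then switches on the genes that build the Casparian strip, a lignin ring in the cell wall that stops solutes from leaking between cells. CASP proteins mark the membrane where the ring forms, ESB1 organises lignin there, and PER64 polymerises it.

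The 5 libraries held between 24918795 and 26823753 reads, and 3 reads, taken as the floor, were worth between 0.11 and 0.123 CPM (counts scaled to library size with TMM factors). The floor and the counting intervals cover counting error only, while intervals of fold changes come from edgeR and the spread between libraries. The mutated gene itself, SMR1, had 6.02, 4.70 and 7.05 CPM in smr1 replicates 1, 2 and 4, against 11 and 21.6 CPM in Col-0 replicates 2 and 4. All 3 smr1 libraries lay below both Col-0 libraries, with a log2 difference of -1.46 ± 0.31 (standard error, SE). The adjusted p was 0.725 by edgeR and 0.0115 by DESeq2. The 6 xylem markers summed to between 779 and 941 TPM in smr1 and to 991 and 942 TPM in Col-0 replicates 2 and 4. Most of it came from XCP1 and XCP2. By CPM, 4 of the 6 had all smr1 libraries below both Col-0 libraries, as had 10.1% of all genes. VND7, named after its values were seen, had all smr1 libraries above both, as had 13.7% of all genes. The 2 markers of non-hair epidermis summed to between 95 and 106 TPM in smr1 and to 71.3 and 84.1 TPM in Col-0. The 9 endodermis genes lay between 2.16 and 16.1 TPM, from 56 to 551 reads a library. All of them were thus detected in every library, including SCR, MYB36 and the CASP genes, which mark the endodermis. SHR RNA does not mark the layer, since the gene is transcribed in the vascular tissue.

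None of the 9 genes differed between smr1 and Col-0 beyond the spread between libraries. By edgeR 0 of 9 passed an adjusted p of 0.05, where 1 of 20151 genes tested did (0.00496%), and 0 of the 9 had an unadjusted p under 0.05. DESeq2 also called 0 of the 9, and 41 of the 17800 genes to which it gave an adjusted p (0.23%). By limma voom 0 genes passed. At an unadjusted p under 0.05 stood 1336 genes by limma voom and 1381 by edgeR, with 0 of the 9 among them by either. The 9 log2 fold changes, smr1 over Col-0, ran from -0.17 for MYB36 to 0.29 for SHR, with a median of 0.05 beside 0.01 over all genes tested. Of these 5 were positive, or 55.6%, against 51.2% of all genes. In none of the 9 did all smr1 libraries lie above both Col-0 libraries (13.7% of all genes did) or below both (10.1%).

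The Col-0 libraries differed from each other by larger ratios than the group means did. These are unlike measures, since single libraries vary more than means. For SHR, SCR, CASP2 and PER64 the highest and lowest of the 5 libraries were of different genotypes. Col-0 replicate 4 had a higher CPM than Col-0 replicate 2 for all 9 genes, by 1.33-fold for ESB1 to 2.17-fold for CASP4, with a median of 1.59-fold. Over all genes tested the median ratio was 1.00, and 9.1% reached 1.59-fold or more. Col-0 replicate 2 was the lowest of the 5 libraries for 8 of the 9, where it was lowest for 24.8% of all genes. Col-0 replicate 4 was the highest for 6 of the 9, against 22.8% of all genes. For MYB36, CASP1, CASP4, CASP5 and ESB1 all 3 smr1 libraries lay between the Col-0 libraries, a pattern seen in 13.1% of all genes. These counts describe the libraries, since the genes share them and do not vary independently. In RNA pooled from sorted nuclei, fewer endodermis cells and less RNA in each of them cannot be told apart.

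**Figure D1:**
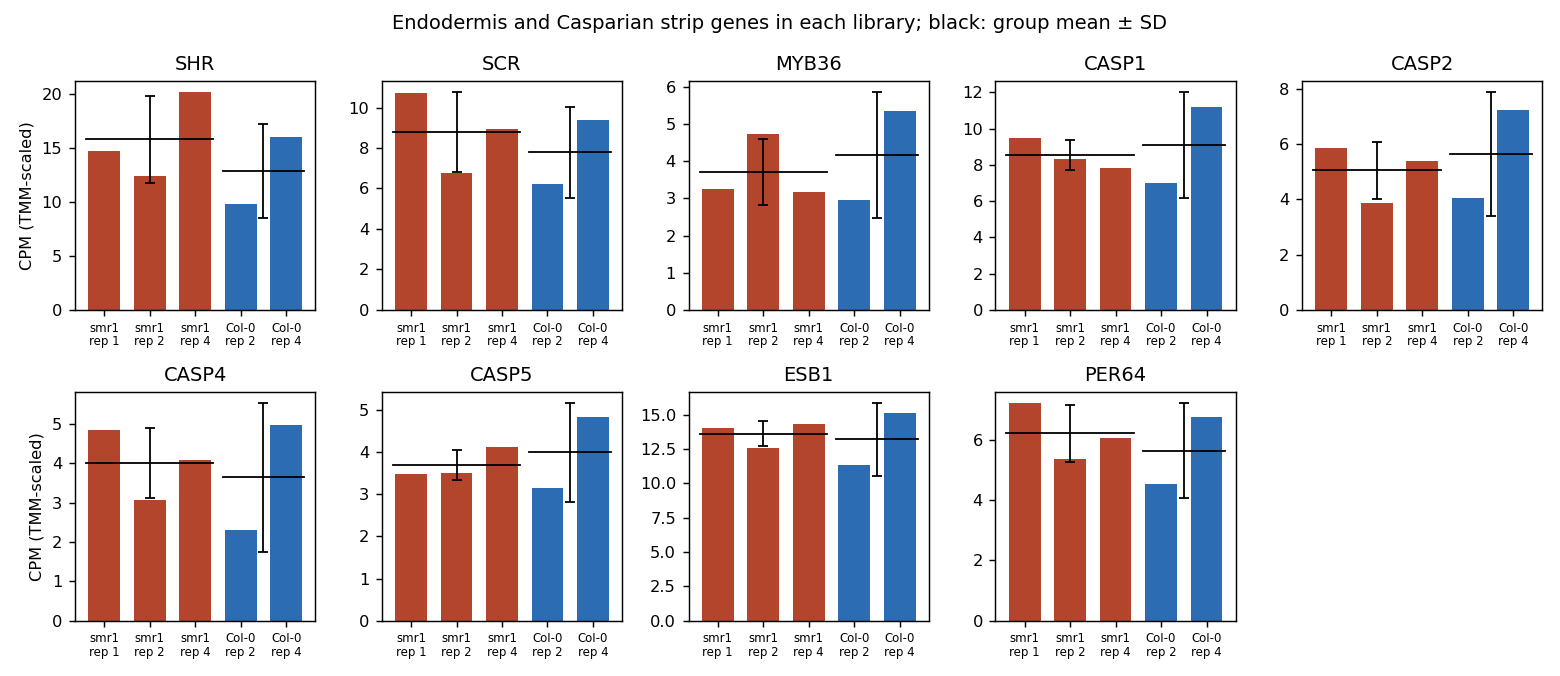
CPM (reads scaled to library size with TMM factors) of the 9 genes in smr1 replicates 1, 2 and 4 (red) and Col-0 replicates 2 and 4 (blue); black lines are group means and error bars the SD. Col-0 replicate 2 is the lowest bar for 8 of the 9 genes and Col-0 replicate 4 the highest for 6.

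SHR (AT4G37650) encodes a GRAS-family transcription factor and occupies positions 17691687 to 17693859 of chromosome 4 (TAIR10.1), with 1 exon on the plus strand. It had 14.7, 12.4 and 20.2 CPM in smr1 replicates 1, 2 and 4, from 375, 336 and 551 reads, against 9.81 CPM (239 reads) in Col-0 replicate 2 and 16.0 CPM (426 reads) in Col-0 replicate 4. The groups overlapped, and smr1 replicate 4 was the highest library. Means were 15.8 ± 4.03 CPM in smr1 (SD, n = 3) and 12.9 ± 4.35 CPM in Col-0 (SD, n = 2). On the log2 scale smr1 was 0.29 ± 0.28 (SE) above Col-0, with a 95% interval from -0.38 to 0.96 and an adjusted p by edgeR of 0.853. This was the highest fold change of the 9.

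SCR (AT3G54220), the GRAS-family partner of SHR that keeps it in the endodermis, lies on chromosome 3 from 20069987 to 20072878 with 2 exons on the plus strand. It had 10.7, 6.77 and 8.93 CPM in smr1 replicates 1, 2 and 4, and 6.20 and 9.37 CPM in Col-0 replicates 2 and 4. The lowest smr1 library lay near the lower Col-0 library and the highest above both. Means were 8.80 ± 1.97 CPM in smr1 and 7.78 ± 2.24 CPM in Col-0 (SD), and the log2 fold change was 0.18 with an interval from -0.46 to 0.81.

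MYB36 (AT5G57620), with 3 exons on chromosome 5 from 23334767 to 23336632, had the lowest fold change of the 9. Its level was 3.24, 4.73 and 3.16 CPM in smr1 replicates 1, 2 and 4, against 2.96 and 5.36 CPM in Col-0 replicates 2 and 4. Both smr1 replicate 2 and Col-0 replicate 4 stood above the other 3. The CASP genes were not arranged in this way within smr1, where their summed level was lowest in replicate 2. On the log2 scale the difference was -0.17 ± 0.32 (SE), with an interval from -0.93 to 0.60 and an adjusted p by edgeR of 0.934.

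The 4 CASP genes described are paralogs, and their coding sequences decide how well reads can be told apart. Each has 3 exons, CASP1 on the minus strand of chromosome 2, CASP2 on the plus strand of chromosome 3, and CASP4 and CASP5 on the plus strand of chromosome 5. CASP2 and CASP4 were the closest pair, with 84.2% of residues and 80.6% of coding bases the same. The other pairs shared between 47.8% and 61.1% of residues. The stretch below covers 60 coding bases of each gene at matching positions, from the RefSeq annotation of TAIR10.1, written 5′ to 3′. Capitals mark the 25 bases that all 4 genes share, and it is shown because it holds the longest run common to CASP2 and CASP4.
CASP1: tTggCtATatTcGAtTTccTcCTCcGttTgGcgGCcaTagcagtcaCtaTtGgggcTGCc
CASP2: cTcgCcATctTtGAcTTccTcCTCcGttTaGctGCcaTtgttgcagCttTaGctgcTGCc
CASP4: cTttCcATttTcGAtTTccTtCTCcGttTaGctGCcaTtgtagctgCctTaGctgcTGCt
CASP5: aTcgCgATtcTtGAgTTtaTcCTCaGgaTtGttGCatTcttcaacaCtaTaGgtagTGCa

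That run, CTCCGTTTAGCTGCCATTGT, is 20 bases long. It starts at base 148 of the CASP2 and base 142 of the CASP4 coding sequence. No other pair of these genes shared more than 17 bases in a row. Against the coding sequences of all other loci, the longest exact match of any of the 9 genes was 27 bases, for SCR and for MYB36.

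CASP1 (AT2G36100, 15159591 to 15160799) had 9.46, 8.32 and 7.83 CPM in smr1 replicates 1, 2 and 4, against 7.02 and 11.2 CPM in Col-0 replicates 2 and 4. All 3 smr1 libraries lay inside the span of the Col-0 libraries. Means were 8.54 ± 0.837 CPM in smr1 and 9.09 ± 2.93 CPM in Col-0 (SD), a log2 difference of -0.09 ± 0.23 (SE).

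CASP2 (AT3G11550, 3638178 to 3639348) was the exception among the 9, since smr1 replicate 2 and not Col-0 replicate 2 was its lowest library. It had 5.86, 3.88 and 5.4 CPM in smr1 replicates 1, 2 and 4, and 4.06 and 7.23 CPM in Col-0 replicates 2 and 4. Its log2 fold change was -0.16 with an interval from -0.89 to 0.56.

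CASP4 (AT5G06200, 1877134 to 1878324) had 4.85, 3.07 and 4.08 CPM in smr1 replicates 1, 2 and 4, and 2.30 and 4.98 CPM in Col-0 replicates 2 and 4. CASP5 (AT5G15290, 4967011 to 4968092) had 3.48, 3.51 and 4.12 CPM in smr1 replicates 1, 2 and 4, and 3.16 and 4.83 CPM in Col-0 replicates 2 and 4. In both genes the smr1 libraries lay between the Col-0 libraries. The log2 differences, smr1 over Col-0, were 0.13 ± 0.36 for CASP4 and -0.11 ± 0.24 for CASP5 (SE).

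Summed over the 4 genes, the CASP level was 23.6, 18.8 and 21.4 CPM in smr1 replicates 1, 2 and 4. Col-0 replicate 2 had 16.5 and Col-0 replicate 4 had 28.2 CPM. Means were 21.3 ± 2.43 CPM in smr1 (SD, n = 3) and 22.4 ± 8.25 CPM in Col-0 (SD, n = 2), a ratio of 0.951. CASP1 made up between 35.3% and 42.8% of the TPM summed over the 4 genes in the 5 libraries, CASP2 between 20.3% and 25.1%, and CASP5 between 16.4% and 21.2%. CASP4 made up most in smr1 replicate 1, at 20.4%, and least in Col-0 replicate 2, at 13.8%.

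ESB1 (AT2G28670) has 2 exons on the minus strand of chromosome 2 from 12300265 to 12302358. It had 14, 12.6 and 14.3 CPM in smr1 replicates 1, 2 and 4, against 11.3 and 15.1 CPM in Col-0 replicates 2 and 4. It had the smallest SE of the 9, with means of 13.6 ± 0.91 CPM in smr1 and 13.2 ± 2.67 CPM in Col-0 (SD). On the log2 scale the difference was 0.05 ± 0.17 (SE). The files divide its reads between a model of 1344 bases and one of 681 bases, and the shorter took 18.2%, 21.7% and 22.2% of the reads in smr1 replicates 1, 2 and 4. It took 21.4% and 22.3% in Col-0 replicates 2 and 4.

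PER64 (AT5G42180), with 4 exons on chromosome 5 from 16852628 to 16854224, had 7.23, 5.36 and 6.06 CPM in smr1 replicates 1, 2 and 4. Col-0 replicates 2 and 4 had 4.52 and 6.75 CPM. The highest library was smr1 replicate 1 and the lowest Col-0 replicate 2. On the log2 scale smr1 was 0.14 above Col-0, with an interval from -0.43 to 0.71.

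Per coding length the deposited TPM placed CASP1 first, at 12.7 ± 2.47 TPM, then ESB1 at 9.56 ± 1.16 TPM and CASP2 at 7.79 ± 2.06 TPM (SD over the 5 libraries). SHR, CASP5, CASP4 and PER64 followed between 6.69 and 5.00 TPM, and SCR and MYB36 came last at 3.06 TPM each. CASP1 stood above ESB1, and PER64 above SCR, in 5 of 5 libraries and by more than the SD of either. The other neighbours in this order differed by less than the larger SD, although ESB1 was above CASP2 in 5 of 5 libraries. The median gene tested had 7.32 TPM, so the 9 genes spanned from percentile 34.1 to percentile 60.9.

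**Figure D2:**
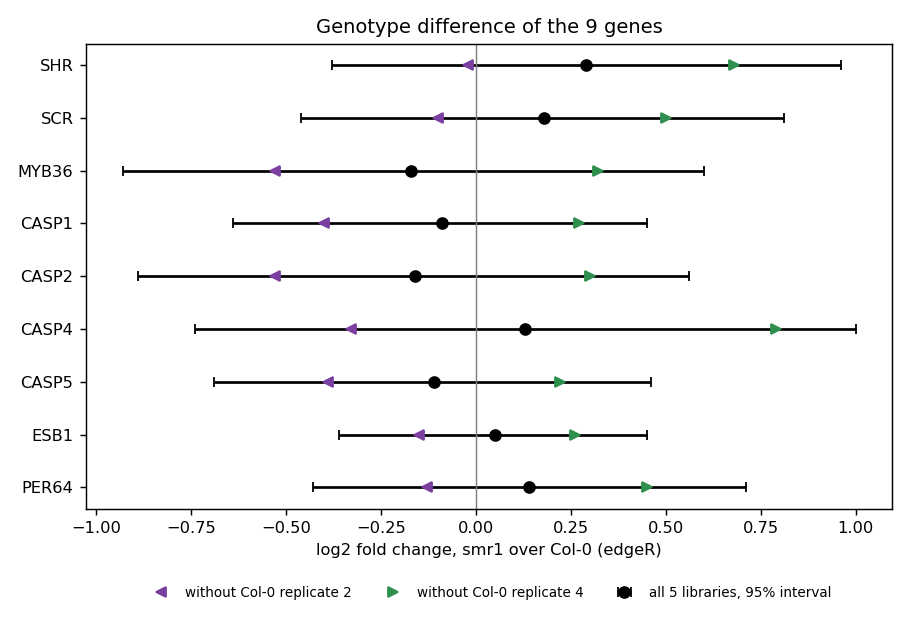
Log2 fold change of each gene, smr1 over Col-0, from edgeR with all 5 libraries (black, bars are 95% intervals) and with Col-0 replicate 2 (purple) or Col-0 replicate 4 (green) left out. Every black interval crosses 0; the purple points lie between -0.53 and -0.02 and the green points between 0.22 and 0.79.

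The intervals bound what these libraries could show. As folds of smr1 over Col-0 they ran from 0.781 to 1.36 for ESB1, the narrowest, and from 0.598 to 2.0 for CASP4, the widest on the log2 scale. The lowest bound of the 9 was 0.524, for MYB36, and the highest that of CASP4. A p-value above the threshold does not show that the genotypes were alike within these bounds. The direction of all 9 fold changes hung on which Col-0 library was kept. Without Col-0 replicate 2 all 9 were below 0, with a median log2 fold change of -0.33, while without Col-0 replicate 4 all 9 were above 0, with a median of 0.32. Over all genes tested the medians were then 0.00 and 0.03. Leaving out either library brought no member past the threshold.

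**Figure D3:**
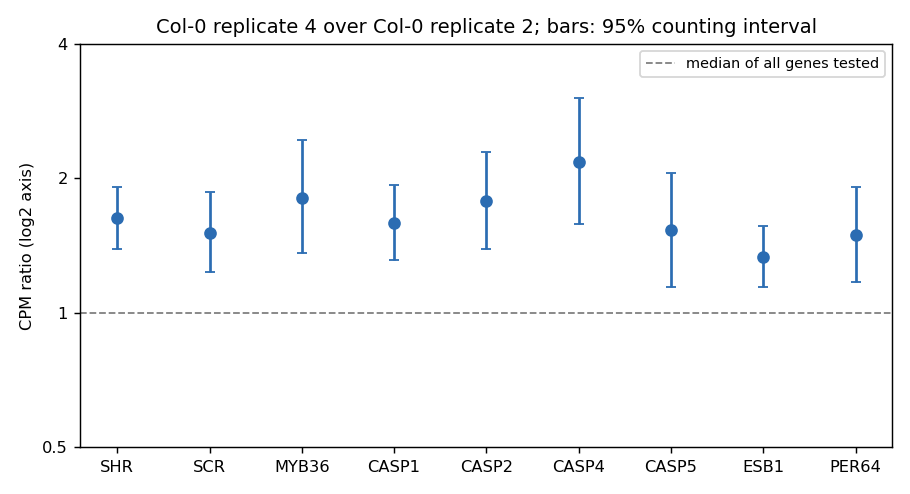
Ratio of CPM in Col-0 replicate 4 over Col-0 replicate 2 for each gene (log2 axis), with exact 95% binomial intervals that cover counting error only; the dashed line is the median of all genes tested. All 9 intervals lie above 1, as for 23.4% of all genes, the ratios running from 1.33 for ESB1 to 2.17 for CASP4.

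For each of the 9 genes the counting interval of the ratio between the Col-0 libraries lay above 1, as it did for 23.4% of all genes. In either direction it left out 1 for 48.5% of all genes. These shares depend on read depth as well as on the size of the ratio. A ratio of 1.59-fold or more, the median of the 9, was reached by 9.1% of all genes. The ratio of replicate 4 over replicate 2 was 2.17 for CASP4, with a counting interval from 1.58 to 3.02. MYB36 had 1.81 and CASP2 1.78. For CASP1 it was 1.59, for SHR 1.63, for SCR 1.51, for CASP5 1.53 and for PER64 1.49. ESB1 had the lowest ratio, with an interval from 1.14 to 1.56. All 9 had a larger SD over the Col-0 libraries than over the smr1 libraries, as had 52.2% of all genes.

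Marker lists of other cell types also differed between these libraries. As mean log2 CPM relative to the 5-library mean, the 9 genes together were at 0.13, -0.13 and 0.08 in smr1 replicates 1, 2 and 4, and at -0.39 and 0.32 in Col-0 replicates 2 and 4. Both tested cortex markers, all 4 root hair markers and both non-hair epidermis markers were higher in Col-0 replicate 4 than in Col-0 replicate 2. So were 10148 of 20151 genes tested. Summed cortex markers had 60.9, 45.1 and 44.0 CPM in smr1 replicates 1, 2 and 4, and 34.9 and 75.2 CPM in Col-0. Most of each cortex sum came from AT1G09750. A further cortex marker, AT1G62500, had at most 4 reads and was at 0 in Col-0 replicate 2. Summed root hair markers had 21.0, 13.0 and 21.6 CPM in smr1 and 17.4 and 27.4 CPM in Col-0. The pericycle sum had the opposite order in Col-0, at 376, 475 and 277 CPM in smr1 and 907 and 428 CPM in Col-0, nearly all of it from TIP2;3. Phloem markers summed to 14.8, 35.1 and 29.7 CPM in smr1 and 34.4 and 19.3 CPM in Col-0, most of it from SUC2. Within Col-0, pericycle and phloem sums, each carried by 1 gene, were thus lower in replicate 4, where the 9 genes were higher. By marker, 1 of 4 in the pericycle list, 1 of 5 in the phloem list and 1 of 6 in the xylem list were higher in replicate 4. Root cap markers summed to 12.5, 16.6 and 17.1 CPM in smr1 and 10.7 and 12.3 CPM in Col-0, most of it from CEL5. The mean log2 level of that list had the opposite order in Col-0, at -0.16 in replicate 2 and -0.26 in replicate 4. Of its 4 markers, 2 were higher in Col-0 replicate 4. Markers of the quiescent centre and meristem summed to 3.32, 7.10 and 2.76 CPM in smr1 and 6.03 and 1.72 CPM in Col-0. The 2 highest of these sums came mostly from WOX5. PLT1, named like PLT2 after its values were seen, had 1.56, 2.33 and 1.51 CPM in smr1 and 1.07 and 0.937 CPM in Col-0, and PLT2 also had all smr1 libraries above both Col-0 libraries. Green tissue markers, which should be low in roots, summed to 29.0, 21.2 and 7.46 CPM in smr1 and 20.9 and 11.1 CPM in Col-0, most of it from PSBO1. The other 2, named after their values were seen, set smr1 replicates 1 and 2 apart. RBCS1A had 80, 108 and 8 reads in smr1 and 9 and 7 reads in Col-0, and LHCB1.1 had 56, 73 and 3 reads in smr1 and 4 and 2 reads in Col-0. The part of these cell types in the differences between libraries was not tested.

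**Figure D4:**
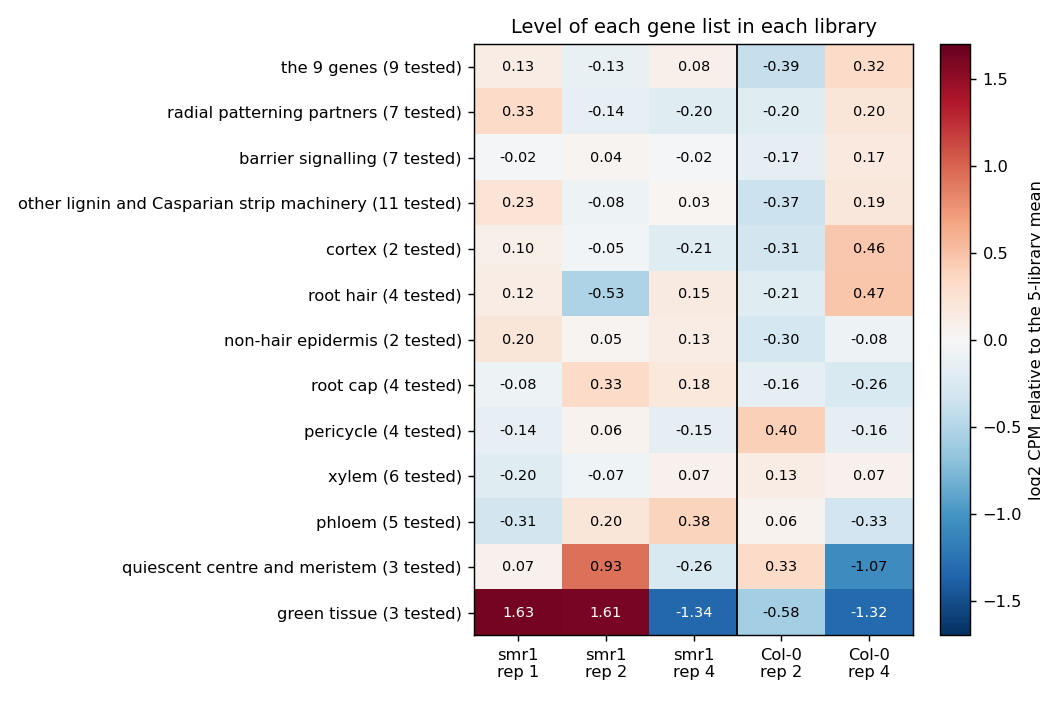
Mean log2 CPM of each gene list relative to its 5-library mean, with smr1 libraries on the left and Col-0 libraries on the right; the number of tested genes stands behind each name. The 9 genes are at -0.39 in Col-0 replicate 2 and 0.32 in Col-0 replicate 4. All related lists shown and the cortex, root hair and non-hair epidermis markers are likewise higher in the second of these. Root cap, pericycle, xylem, phloem, quiescent centre and green tissue lists are lower there.

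Other genes of the same pathway gave no call either. Among 7 partners of SHR and SCR in radial patterning, 0 of 7 tested passed edgeR's threshold or DESeq2's, and the median log2 fold change was -0.09 with 2 positive and 5 negative. By smallest p these were SCL23, a GRAS-family factor related to SCR, and CYCD6;1, a D-type cyclin of the division that forms the layer. SCL23 had 4.03, 3.51 and 3.34 CPM in smr1 replicates 1, 2 and 4, and 2.22 and 3.34 CPM in Col-0 replicates 2 and 4. Its lowest smr1 library was level with Col-0 replicate 4 at this rounding, and the log2 difference was 0.38 ± 0.25 (SE; adjusted p by edgeR 0.77). CYCD6;1 had 4.03, 2.96 and 2.87 CPM in smr1 and 3.37 and 3.90 CPM in Col-0, a log2 difference of -0.15 ± 0.23 (SE).

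Of 8 genes of barrier signalling and secretion, 7 were tested and 0 passed by either tool, with a median of -0.09. AT2G16385 was not tested, with 0, 1 and 2 reads in smr1 replicates 1, 2 and 4 and 0 in both Col-0 libraries. RBOHF, an NADPH oxidase that supplies oxidant for lignin, had 238, 267 and 207 CPM in smr1 and 297 and 263 CPM in Col-0. The log2 difference was -0.24 ± 0.13 (SE; adjusted p by edgeR 0.747). TPST, which sulfates peptide hormones, had 16.6, 19.0 and 17.9 CPM in smr1 and 15.4 and 15.2 CPM in Col-0, a log2 difference of 0.22 ± 0.13 (SE).

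Of 11 other genes of lignin and Casparian strip building, 0 passed by either tool, and the median was 0.10 with 6 positive and 5 negative. Groups did not overlap in 4 of the 11, beside 23.8% of all genes. These 4, of which AT3G24020 and AT1G07730 are named after their values were seen, are AT4G11290, AT3G24020 and MYB68 above Col-0 and AT1G07730 below. AT4G11290, a peroxidase by its annotation, had 10.9, 9.36 and 10.1 CPM in smr1 replicates 1, 2 and 4, against 6.57 and 7.94 CPM in Col-0 replicates 2 and 4. The log2 difference was 0.48 ± 0.17 (SE), and edgeR gave 0.0245 as its unadjusted and 0.725 as its adjusted p. MYB68, a factor close to MYB36, had 27, 26 and 39 reads in smr1 and 7 and 25 reads in Col-0, a log2 difference of 0.89 ± 0.50 (SE). All 11 of these genes were higher in Col-0 replicate 4 than in Col-0 replicate 2, as were 10148 of 20151 genes tested. Of the 11, 7 were lowest in Col-0 replicate 2, as were 24.8% of all genes. The 11 genes share these libraries and do not vary independently.

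Genes for suberin, the lipid coat that covers older endodermis after the strip has formed, had few reads. Of 6, only ASFT and KCS2 passed the filter, and 0 of these 2 passed the test. ASFT, a feruloyl transferase of suberin, had 30, 28 and 46 reads in smr1 replicates 1, 2 and 4, and 31 and 45 reads in Col-0 replicates 2 and 4. KCS2, a fatty acid elongase, had 16, 8 and 12 reads in smr1 and 4 and 17 reads in Col-0. The other 4 had at most 10 reads in any library. Among these CYP86B1, named after its values were seen, had 2, 1 and 2 reads in smr1 and 5 and 7 reads in Col-0, without overlap and untested.

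The genes whose pattern over the 5 libraries was most like the mean CASP pattern were found by the root mean square difference of centred log2 CPM over the 5 libraries. The pattern was the mean over the 4 CASP genes described. The nearest of 17436 genes were UMAMIT4, annotated as a transporter, and AT1G17790, a bromodomain protein, both at 0.045. UMAMIT4 had 182, 152 and 184 CPM in smr1 replicates 1, 2 and 4, and 134 and 223 CPM in Col-0 replicates 2 and 4. SKIP16, an SKP1-interacting protein, MYB61, a MYB-family factor, and AT5G66710, a protein kinase, followed at 0.049, 0.052 and 0.053. The median gene was at 0.32, and 108 genes were under 0.1. The CASP genes themselves lay between 0.1 for CASP2 and 0.174 for CASP4. Each is part of the mean it is measured against, which brings it nearer by construction. Even so, 107 genes outside the members were closer than CASP2, and 1068 were closer than CASP4. Of the members outside the CASP family, PER64 was nearest at 0.121, then ESB1 at 0.143, SCR at 0.151, SHR at 0.246 and MYB36 at 0.321. Genes outside the members that were closer numbered 257 for PER64, 490 for ESB1 and 616 for SCR, so this likeness is not particular to them. MYB36 was thus about as far from the CASP pattern as the median gene.

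As a description of sequence, the 250 bases before each annotated gene start were searched for patterns drawn from AC elements. These are short motifs described in promoters of lignin genes. The letters searched were ACCNACC and ACCNAAC, on both strands. N stands for any base, so a match need not be a described AC element. SHR, SCR, CASP5 and ESB1 held a match, 4 of the 9, against 19.3% of 27443 protein-coding genes. Every match in these genes was to ACCNAAC, as ACCAAAC or its complement GTTTGGT, and none was to ACCNACC. The annotated start of ESB1 is partial, and its annotated coding length was 1311 bases, against 1344 in the longer deposited model. The CASP5 window, with a single match, is given as the example from the CASP family, on TAIR10.1 at chr5:4966761-4967010 (plus strand), 5′ to 3′ toward the gene, with the match in capitals.
CASP5: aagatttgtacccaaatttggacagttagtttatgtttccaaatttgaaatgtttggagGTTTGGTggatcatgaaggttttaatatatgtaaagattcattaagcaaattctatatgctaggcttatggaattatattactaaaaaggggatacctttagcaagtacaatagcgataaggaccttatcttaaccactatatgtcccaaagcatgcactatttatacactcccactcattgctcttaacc

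The match reads on the strand opposite to the gene and begins at position -191, counted from the gene start. MYB36, CASP1, CASP2, CASP4 and PER64 held none in this window.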

How the data were processed

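RNA from sorted nuclei was sequenced from libraries made with a stranded mRNA kit, per the labels' protocols. The deposited files give expected counts (estimated reads per transcript model) and TPM, per the file headers. The submitters' processing notes name Salmon 0.7.2, CASAVA and TAIR10, with no role for any. No source used here gives the strand setting or read filters. Lengths of models are multiples of 3 in 93.36% of cases, so they are called coding lengths.

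Expected counts were summed per locus, rounded and tested with edgeR 4.0.16 in R 4.3.3 (minimum count 10, minimum total 15, TMM, robust quasi-likelihood F test, Benjamini-Hochberg over all genes, threshold 0.05, two-sided). SE came from the F statistic, and log2 CPM used a prior count of 1. DESeq2 1.42.0 (no adjusted p for 8751 of 26551 genes), limma 3.58.1 voom, other scaling, no filter, a replicate block and leaving out each library were alternatives. The main edgeR fit had 3 residual degrees of freedom, and the fit with a replicate block had fewer. The edgeR intervals and p-values used a larger total, which adds variance information shared over all genes. The code was tested on simulated data. TPM served for levels between genes, shares within the CASP family and 2 marker sums, and for no test.

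Of the 10 loci the rule names, 1 is not reported here, and counts, medians, sums and figures are over the other 9. The members and lists were chosen with earlier results of these data known. Named beside the members were, per related list, the 2 genes with the smallest p, and the 5 genes nearest the CASP pattern with at least 1 CPM. Cell type markers were summed by list. Names and sequences come from RefSeq for TAIR10.1, which annotates all 75 listed loci. Of 34613 models matched by name, 96.47% had its coding length.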

Additional observations from a re-analysis of the deposited data

How the results depend on the processing

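None of the 9 members described passed under any of the 11 alternatives. Across the 6 alternatives that keep all libraries, all 54 member fold changes kept their direction. With 1 library left out, 35 of 45 did and 10 reversed. The log2 fold change then ranged from -0.02 to 0.68 for SHR, -0.10 to 0.50 for SCR, -0.53 to 0.32 for MYB36, -0.40 to 0.27 for CASP1, -0.53 to 0.30 for CASP2, -0.33 to 0.79 for CASP4, -0.39 to 0.22 for CASP5, -0.15 to 0.26 for ESB1 and -0.13 to 0.45 for PER64. Leaving out Col-0 replicate 2 reversed SHR, SCR, CASP4, ESB1 and PER64, leaving out Col-0 replicate 4 reversed MYB36, CASP1, CASP2 and CASP5, and leaving out smr1 replicate 1 reversed CASP4, to -0.03. The smallest adjusted p among them was 0.534. The members' median then ranged from -0.33 to 0.32, the summed CASP ratio of smr1 over Col-0 from 0.754 to 1.29 (1.29 without Col-0 replicate 4), and the members whose groups did not overlap from 0 to 8, at 6 when Col-0 replicate 2 was dropped (56.8% of all genes) and 8 when Col-0 replicate 4 was (60.3%), each leaving 1 Col-0 library, assumed to vary like the others. Over all genes edgeR called 1, and 3 with no expression filter, 41 by DESeq2, 0 by limma voom and 0 with any 1 library left out. The cause was not tested.

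Col-0 and smr1 share replicate numbers 2 and 4, but nothing in the labels ties them to a day or batch. Deviations from the group mean correlated at 0.397 for replicate 2 and 0.185 for replicate 4 over 20151 genes, with only 2 pairs. The deviations of the 2 Col-0 libraries mirror each other, so these correlations are not independent. In a fit with a replicate block, smr1 replicate 1 has no Col-0 partner and does not inform the genotype difference. With a replicate block edgeR called 2 genes, and member log2 fold changes lay between -0.25 and 0.34 with a smallest adjusted p of 0.508. Depth limits MYB36, CASP4 and CASP5 most, at 56 to 143 reads a library.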

Other observations

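In 14.1% of all genes smr1 replicate 1 and Col-0 replicate 4 both lay above the other 3 libraries. This arrangement, chosen after the values were seen, was found in 5 of the 9 members (SCR, CASP1, CASP2, CASP4 and PER64), in 5 of 7 radial patterning partners, in 3 of 7 tested barrier genes and in 6 of 11 lignin genes. The partners SCL3 and SCL23 did not have it. Examples, also named after their values were seen, follow. GSO1, a receptor kinase that monitors the barrier, had 56.4, 33.3 and 33.3 CPM in smr1 replicates 1, 2 and 4, and 35.4 and 57.1 CPM in Col-0 replicates 2 and 4. JKD, a zinc-finger partner of SHR and SCR, had 48.0, 32.1 and 31.5 CPM in smr1 and 31.9 and 49.8 CPM in Col-0. NUC, of the same zinc-finger family, had 19.5, 11.3 and 12.5 CPM in smr1 and 12.5 and 18.1 CPM in Col-0. SHR was highest in smr1 replicate 4 instead. Log2 fold changes were -0.18 for GSO1, -0.14 for JKD and -0.09 for NUC, and none passed the test by edgeR (adjusted p = 0.925, 0.931 and 0.962).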
